A study of Mus musculus with 4 samples.

Results

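The 45 genes described here encode secreted or membrane-bound matrix proteases and their inhibitors, 22 matrix metalloproteinases (Mmp), 19 ADAMTS proteases (Adamts) and 4 tissue inhibitors of metalloproteinases (Timp). They were taken by symbol, as every Mmp, Adamts or Timp gene of the feature tables other than Mmp9, and they make up 45 of the 33696 genes counted. The rule reads symbols and uses no expression value. Their transcripts were followed across cell classes in 4 single-cell libraries of mouse digits after amputation of the tip of the distal phalanx (P3). By the study's methods, hind limb digits were cut for harvest at the proximal middle phalanx, so the libraries hold tissue beyond P3. The harvested range includes the middle digit, which the methods do not list as amputated.

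Each library pooled digits of 10 female C57BL/6 mice aged 6–8 weeks (the study's methods name the substrain C57BL/6J) and was read as unique molecular identifiers (UMIs) at the 3′ end of transcripts. In the SAR131675 experiment, one library came from mice fed SAR131675, an inhibitor of the lymphatic growth factor receptor VEGFR3, at 30 mg/kg of chow for 8 days (SAR131675 diet), and the other from mice on matched chow (diet control). In the lymph node removal (LNR) experiment, one library came from digits of the extremity whose nodes were removed (LNR) and the other from the controls (LNR control), which the series design calls sham and the sample record calls untreated. The study took the opposite limb as the sham, so both LNR libraries may come from the same animals. Its text and supplement place the single-cell data at 8 days after amputation, while a figure legend gives another day for the SAR131675 experiment. Its methods start the SAR131675 chow before amputation, so by that account days on the diet exceed days after amputation. Each condition thus has 1 library, each library has a batch label of its own, and the batch and the treatment cannot be told apart. No test between conditions was possible, and every ratio carries an exact 95% interval that covers counting error only.

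Between 19827 and 29076 cells were kept per library, with a median of 11316 and 10712 UMIs per cell in the SAR131675 pair and 5725 and 5851 in the LNR pair. The deposited matrices of the SAR131675 pair were written by a later version of the counting software, and genes with long introns stood higher there, so a difference in level between the experiments is given as a value and not read as one between conditions. Cells were clustered without the 45 genes and named from marker genes, and a named class is written as mesenchymal-like, mural-like and so on. Each experiment was clustered alone at the level of mesenchymal types, so a type of the same name need not hold the same cells in both, and the same holds for the immune classes. Levels are CPM, a gene's UMIs scaled to a common total of the summed UMIs of a class, are not divided by transcript length, and are compared between classes rather than between genes.

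Matrix metalloproteinases cleave collagens, proteoglycans and other matrix proteins around cells, and most are made as inactive precursors. ADAMTS proteases carry thrombospondin repeats and include enzymes that cut aggrecan and versican and others that trim procollagens. TIMPs bind the active site of these enzymes, and in bone the balance between them bears on the removal of collagen and on the release of factors bound to the matrix.

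Transcripts of inhibitors outnumbered those of either protease family. Over all kept cells, the 4 Timp genes held 54.7%, 53.7%, 55.2% and 56.5% of the UMIs of the 45 genes in SAR131675 diet, diet control, LNR and LNR control. The order of the protease families differed between the experiments, with Adamts genes at 349 and 353 CPM and Mmp genes at 240.2 and 268 CPM in the SAR131675 pair, and Adamts genes at 333 and 298 CPM and Mmp genes at 460.2 and 325 CPM in the LNR pair. Timp3, Timp2 and Timp1 held 99.7% of the Timp UMIs. In every library the most counted proteases of each family were Mmp2 and then Mmp14, and Adamts1 and then Adamts5. Next came Mmp28 and Adamts9 in the SAR131675 pair and Mmp13 and Adamts2 in the LNR pair. Of the 45 genes, 42 had at least 1 UMI in every library and 30 had at least 100. Mmp1a, Mmp1b, Mmp7, Mmp20, Mmp21 and Adamts13 had fewer than 50 UMIs over the 4 libraries together, from 1 UMI for Mmp7 to 43 for Adamts13, and nothing further can be said of them at this depth.

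The Timp share was higher in lymphatic endothelial-like and macrophage-like cells than in mesenchymal-like cells in all 4 libraries. Among mesenchymal-like cells, Timp genes held 57.8% of the UMIs of the 45 genes in SAR131675 diet, 55.9% in diet control, 53.8% in LNR and 56.0% in LNR control. In lymphatic endothelial-like cells the shares were 89.2%, 90.7%, 89.1% and 90.2%, and in macrophage-like cells 95.3%, 94.7%, 96.8% and 96.9%. Keratinocyte-like cells lay lower, at 46.4%, 42.2%, 43.7% and 45.6%. Types within these classes differed widely. In the SAR131675 pair, chondrocyte-like cells had 89.0% and 88.4%, and nail mesenchyme or dermal papilla-like cells 29.5% and 27.8%. Among keratinocyte-like cells of that pair, sweat gland-like cells had 87.6% and 92.2%, and suprabasal keratinocyte-like cells 28.7% and 29.7%. With classes taken from markers per barcode, which left 95 mesenchymal-like cells in diet control, the mesenchymal-like share there was 38.8%, below the keratinocyte-like value above.

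**Figure D1:**
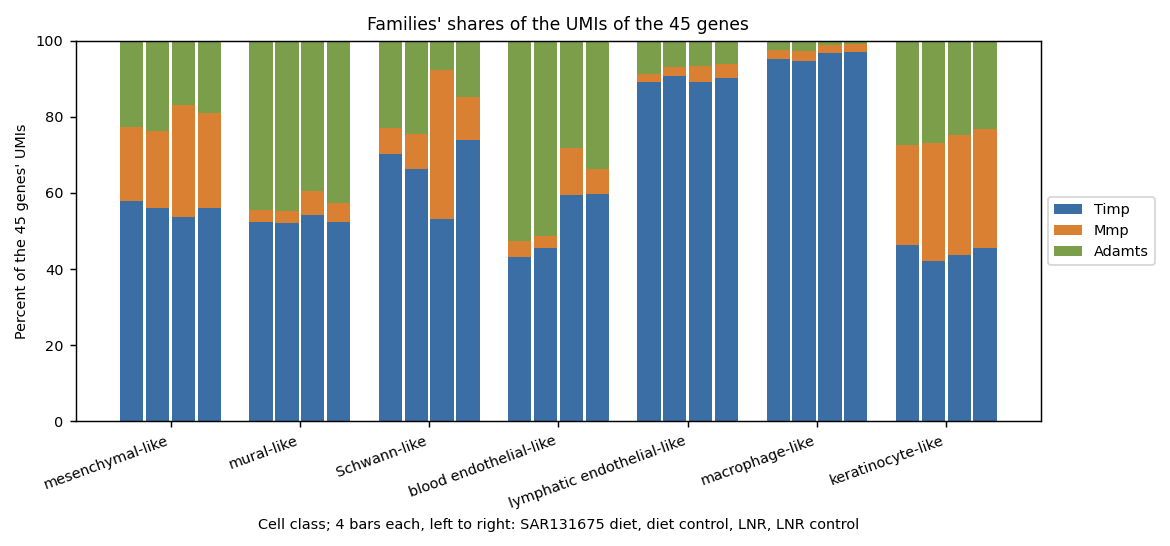
Stacked bars give the percent of the UMIs of the 45 genes held by each family, for each cell class and for the 4 libraries in the order SAR131675 diet, diet control, LNR and LNR control. The Timp share reaches 89.1% to 90.7% in lymphatic endothelial-like cells and 94.7% to 96.9% in macrophage-like cells, and lies between 53.8% and 57.8% in mesenchymal-like cells.

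A class was taken as leading a gene when it had the highest CPM of 9 classes and at least 20 UMIs in each library. Of the 45 genes, 26 could be assessed in this way, and 21 had the same leading class in all 4 libraries. Over all genes assessed in the same manner the share was 64.2%. Mesenchymal-like cells led 11 of the 26 genes (Adamts2, Adamts3, Adamts5, Adamts10, Adamts19, Mmp2, Mmp3, Mmp14, Mmp23, Mmp27 and Timp2), against 11.7% of all genes assessed. Their lead over the next class ran from 1.08 times for Adamts2 in diet control to 23.1 times for Mmp27 in SAR131675 diet. For Adamts2, Adamts10 and Timp2 it was at most 1.76, 1.43 and 1.24 times in any library. Mural-like cells led 5 (Adamts1, Adamts4, Adamts12, Mmp11 and Timp4), against 7.12%, and myeloid cells led Mmp8 and Mmp12, against 11.3%. Blood endothelial-like, lymphatic endothelial-like and Schwann-like cells led 1 gene each, Adamts9 (5.62% of all genes), Timp3 (4.99%) and Mmp15 (3.24%). Keratinocyte-like cells, which led 16.2% of all genes assessed, led 0 of the 26. Adamts15, Mmp13, Mmp16, Mmp19 and Timp1 had different leading classes in different libraries, and the remaining 19 genes had too few UMIs. Mmp13 and Timp1 were led by mesenchymal-like cells except in LNR, where Schwann-like cells led with 475 of 556 Mmp13 UMIs and 240 of 268 Timp1 UMIs in 1 cell each, of 146 cells.

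**Figure D2:**
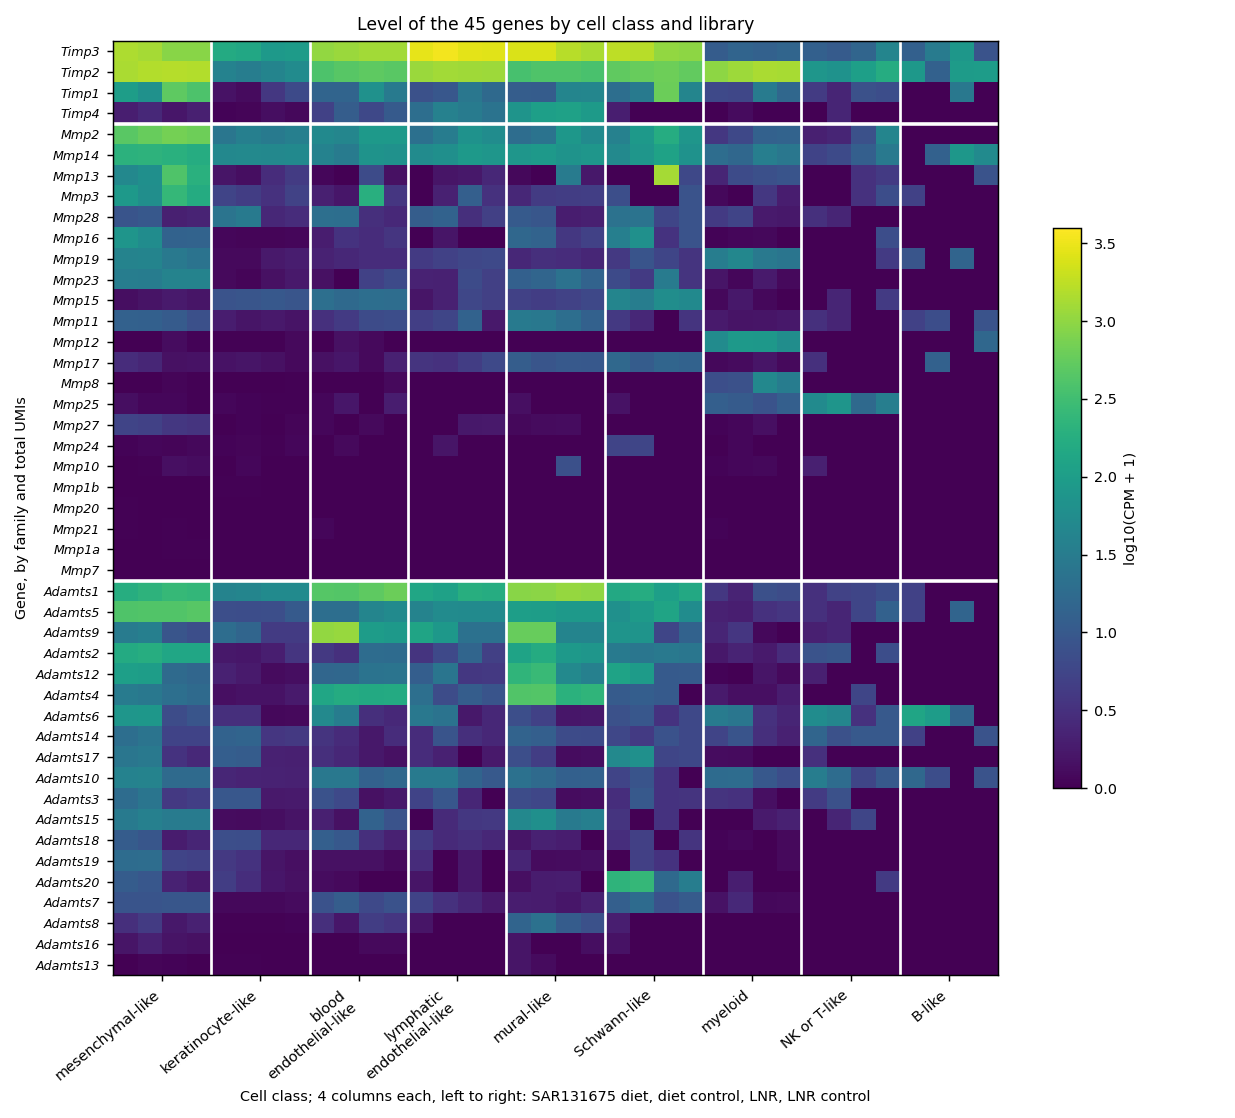
Each row is 1 of the 45 genes, grouped by family and ordered by total UMIs, and each block of 4 columns is a cell class in SAR131675 diet, diet control, LNR and LNR control, with the color giving the logarithm, to base 10, of the CPM plus 1. Timp2 is high in mesenchymal-like cells and Timp3 in lymphatic endothelial-like and mural-like cells in every library, and Adamts9 stands out in blood endothelial-like cells.

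Timp2, which inhibits metalloproteinases and also takes part in the activation of MMP2 at the cell surface, was present in both mesenchymal and macrophage-like cells. Its level in mesenchymal-like cells was 1405 CPM in SAR131675 diet, 1551 in diet control, 1576 in LNR and 1523 in LNR control. In macrophage-like cells it was 2039, 2161, 2424 and 2430 CPM, and 99.0%, 100%, 95.6% and 95.2% of these cells had at least 1 UMI, against 26.5%, 24.1%, 16.9% and 16.0% of NK or T-like cells. Median depth was 7910.0, 7695, 3248 and 2933 UMIs in macrophage-like cells and 5167, 5400, 2033 and 1870 in NK or T-like cells. Macrophage-like cells thus lay above mesenchymal-like cells in each library. The pooled myeloid class, which was used for the leading class, also holds neutrophil-like and other cells. No Timp2 ratio passed 1.5-fold with either treatment in the classes compared.

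Timp3, the TIMP that binds the matrix and can also inhibit ADAMTS aggrecanases, was highest in lymphatic endothelial-like cells, with 2960, 3419, 2817 and 2732 CPM in the same order of libraries. Blood endothelial-like cells held 1026, 1142, 1256 and 1247 CPM, and mural-like cells 2453, 2520, 1615 and 1382. The lymphatic endothelial-like level was the highest of the 9 classes in each library, on 236 to 261 cells per library. Within the mesenchyme, fibroblast-like cells reached 3551, 2532, 2319 and 2845 CPM. These levels came mostly from sub-clusters led by Col8a1 and Rbp4, which held 11615 and 12613 CPM in the SAR131675 pair (138 of 608 and 59 of 520 cells) and 5826 and 6069 CPM in the LNR pair. The other fibroblast-like sub-clusters held between 379 and 1617 CPM. Timp4, the least abundant inhibitor, was highest in mural-like cells, with 71.8, 106, 112 and 91.1 CPM there and at most 1.58 CPM in mesenchymal-like cells. Lymphatic endothelial-like cells came next, and the mural-like level was 2.83 to 4.06 times theirs.

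Among collagen- and gelatin-degrading proteases, Mmp2 (gelatinase A) was a mesenchymal transcript with 477 CPM in SAR131675 diet, 574 in diet control, 707 in LNR and 646 in LNR control, against 50.4, 83.9, 167 and 85.4 CPM in the next highest class, blood endothelial-like cells in SAR131675 diet and LNR control and Schwann-like cells in the other libraries. Mmp14, the membrane-bound protease that activates MMP2, was at 207, 212, 191 and 170 CPM in mesenchymal-like cells, 1.64 to 2.70 times the next class. Both were led by mesenchymal-like cells in all 4 libraries. In the cells named nail mesenchyme or dermal papilla-like, Mmp2 was at 80.9 and 88.5 CPM in the SAR131675 pair. In the LNR pair this name covered a sub-cluster led by Igfbp3 and Rspo3, with Mmp2 at 169 and 138 CPM, and a larger one led by Mfap4 and Igfbp2, with 1460.4 and 1538 CPM. Mfap4 led a sub-cluster named adventitial fibroblast-like in the SAR131675 pair. Mmp16, another membrane-bound member, was at 74.7, 54.8, 12.6 and 13.1 CPM in mesenchymal-like cells. Mmp23 lay between 31.2 and 39.7 CPM there, and Mmp27 between 2.52 and 4.44.

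Other Mmp genes marked cells outside the mesenchyme. Mmp8, neutrophil collagenase, was at 132, 139, 429 and 268 CPM in neutrophil-like cells and at no more than 0.0647 CPM in keratinocyte-like cells. Mmp12, macrophage elastase, was led by the pooled myeloid class with 53.4, 85.4, 82.3 and 56.7 CPM, but macrophage-like cells held only 13 and 25 of these UMIs in the SAR131675 pair and none in the LNR pair, which allows up to 1.12 and 1.34 CPM there at the floor of 3 counts. Dendritic-like cells held 401 of the 524 Mmp12 UMIs in SAR131675 diet and 209 of 603 in diet control. The rest in diet control lay among monocyte-like, neutrophil-like and unnamed myeloid cells. These held 532, 33 and 67 UMIs of all Mmp genes together. In the LNR pair, all 407 and 247 Mmp12 UMIs lay in myeloid cells left unnamed. These include a cluster with Tnip3, Ear2, Ccr2 and Cd209a among its leading genes, as in a cluster named dendritic-like in the SAR131675 pair, so the class names do not match here. In diet control, 1 cell carried 284 of the 603 myeloid Mmp12 UMIs, and the log2 ratio of SAR131675 diet to diet control was −0.68 with that cell and 0.08 without the top cell of each library.

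Mmp25, a membrane-anchored protease of leukocytes, was at 51.8, 73.2, 16.1 and 33.3 CPM in NK or T-like cells on 7 to 53 UMIs. Mmp15, a membrane-type protease, was highest in Schwann-like cells at 43.1, 32.3, 58.1 and 49.6 CPM, with 15.8 to 19.6 CPM in blood endothelial-like cells. Mmp19 was shared between mesenchymal-like cells (39.2, 41.1, 27.5 and 22.5 CPM) and myeloid cells (32.6, 45.9, 27.9 and 23.9 CPM), and the order of these classes differed between libraries. Mmp28, known as epilysin and made in the epidermis, stood in keratinocyte-like cells at 23.1 and 28.1 CPM in the SAR131675 pair, beside the 22.0 and 22.3 CPM of Schwann-like cells, and at 1.49 and 1.88 CPM in the LNR pair, where Schwann-like cells had 4.65 and 7.44 CPM on 2 and 3 UMIs. Mmp17 was at 15.7, 10.0, 13.9 and 12.4 CPM in Schwann-like cells on 5 to 32 UMIs, and between 7.76 and 10.4 CPM in mural-like cells. Mmp24 was at 4.41 and 4.62 CPM in Schwann-like cells of the SAR131675 pair, on 9 and 6 UMIs, with none in those of the LNR pair. Mmp10 did not exceed 0.390 CPM in mesenchymal-like cells, and 21 UMIs in LNR mural-like cells came from 1 cell.

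Of the aggrecan- and versican-cutting ADAMTS proteases, Adamts1 and Adamts4 were mural-like and Adamts5 mesenchymal. Adamts1 was at 910.0, 938, 1059 and 1002 CPM in mural-like cells, 450 CPM, 431, 506 and 617 in blood endothelial-like cells, and 173, 209, 258 and 245 in mesenchymal-like cells. Adamts4 was at 417, 438, 200 and 227 CPM in mural-like cells. Adamts5 was at 407, 418, 422 and 457 CPM in mesenchymal-like cells and reached 1002, 1096, 816 and 896 CPM in synovial lining-like cells, named from Prg4 and other lining markers. The order mural-like, blood endothelial-like and mesenchymal-like held for Adamts1 in each library. Adamts15 was 1.64 and 1.72 times as high in mural-like cells (47.6 and 62.1 CPM) as in mesenchymal-like cells (29.1 and 36.2 CPM) in the SAR131675 pair and close in the LNR pair, at 29.4 and 34.6 CPM against 30.2 and 30.1 CPM. Adamts8 was at 13.6, 21.0, 10.1 and 6.93 CPM in mural-like cells.

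Adamts9, which cuts versican and aggrecan, was at 1026 and 1113 CPM in blood endothelial-like cells of the SAR131675 pair and at 96.8 and 88.4 CPM in those of the LNR pair, and blood endothelial-like cells led in both. Adamts12 was at 224, 278, 48.9 and 36.1 CPM in mural-like cells. Adamts20, known for its role in the development of pigment cells, was highest in Schwann-like cells of each library. Its level there was 221, 250, 16.3 and 32.2 CPM, but on as few as 7 UMIs in LNR. Dct, a pigment cell gene, was at 139, 1269, 0 and 2.48 CPM in the Schwann-like class, so the class of the SAR131675 pair holds transcripts of pigment cells, and their part in the Adamts20 level was not tested. Adamts20 was also found in nail mesenchyme or dermal papilla-like cells at 145 and 217 CPM in the SAR131675 pair and at 8.44 and 5.88 CPM in the LNR pair.

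The procollagen N-proteinases Adamts2, Adamts3 and Adamts14, which trim fibrillar procollagens, were led by or found in the mesenchyme. Adamts2 was at 158, 173, 136 and 135 CPM in mesenchymal-like cells and at 359, 490, 155 and 163 CPM in tenocyte-like cells, a collagen-building class. Adamts3 was at 58.6, 89.1, 9.43 and 7.64 CPM in osteoblast-like cells. Adamts14 was at 19.3, 23.5, 4.25 and 4.33 CPM in mesenchymal-like cells. Adamts2 was therefore the most counted of these 3 in mesenchymal-like cells of every library. Adamts6 was at 278 and 213 CPM in tenocyte-like cells of the SAR131675 pair and at 4.49 and 16.3 CPM in the LNR pair. Of the remaining ADAMTS genes, Adamts7 (7.60 to 8.22 CPM) and Adamts10 (16.5 to 40.4 CPM) were detected in mesenchymal-like cells of all libraries, as were Adamts17 (1.64 to 27.1 CPM), Adamts18 (0.857 to 10.2 CPM), Adamts19 (3.93 to 18.5 CPM) and Adamts16 (0.442 to 1.17 CPM). Adamts17 was 1.95 to 3.03 times as high in Schwann-like cells, on as few as 2 UMIs. Adamts7 was also highest in Schwann-like cells except in LNR, on as few as 4 UMIs.

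The question of the SAR131675 comparison was how blocking VEGFR3 bears on the regenerating digit, and here it was asked which of the 45 genes differed in mesenchymal-like cells. Of 33 genes with at least 50 UMIs in the pair, 1 was higher and 3 were lower by at least 1.5-fold in SAR131675 diet, and 6.45% of all genes passed the same limit (4.04% higher and 2.41% lower). The higher gene was Timp1, with 100 CPM (4087 UMIs) in SAR131675 diet and 65.3 CPM (2226 UMIs) in diet control, a log2 ratio of 0.62 with an interval from 0.54 to 0.69. It was under the limit at resolution 0.4 (0.54) and without the mesenchymal-like cells of no named type (0.50), and had too few UMIs with markers per barcode. The lower genes were sparse. Adamts8 had 85 and 108 UMIs (log2 ratio −0.60, from −1.03 to −0.18), but its ratio turned to 0.0875 with barcodes called by Scrublet removed. Adamts16 had 24 and 40 UMIs (−0.996, from −1.79 to −0.23) and Timp4 41 and 54 (−0.66, from −1.28 to −0.04), the latter at −0.09 without Scrublet calls. The median log2 ratio was −0.05 over the 33 genes and −0.01 over all genes tested.

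Timp1, a secreted inhibitor that responds to cytokines, was not higher in every mesenchymal type. In adventitial fibroblast-like cells its log2 ratio was 0.84, from 37.9 CPM in diet control to 67.7 CPM, in tenocyte-like cells 0.48 and in synovial lining-like cells 0.43. In osteoblast-like cells Timp1 was at 330 and 277 CPM (0.25), and in fibroblast-like cells it was lower, at 52.2 and 61.8 CPM (−0.25). The fibroblast-like ratio turned to 0.20 when the top cell of each library was left out. Mesenchymal-like cells of no named type gave the largest ratio, 2.64, on 434 and 51 UMIs, with 6 cells and 1 at 10 UMIs or more, and 1.91 without the top cells. Stromelysin-1, encoded by Mmp3, stood near the limit in mesenchymal-like cells, with 85.9 against 58.7 CPM (0.55), and its ratio was 1.52 in synovial lining-like (0.99 without the top cells) and 0.73 in adventitial fibroblast-like cells. Its levels were close in fibroblast-like cells (147 and 148 CPM, −0.01) and in osteoblast-like cells (161 and 158 CPM, 0.03), the types with the highest Mmp3 of the pair, and tenocyte-like cells had 6 and 18 UMIs. Mmp16 also lay under the limit, at 0.45.

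In LNR against LNR control, 28 of the 45 genes had at least 50 UMIs in mesenchymal-like cells. Mmp13, collagenase-3, was higher and Adamts18 was lower, and 2.82% of all genes passed the limit (1.62% higher and 1.21% lower). The count of 2 became 5 under 5 of the alternatives, for which the share of all genes was not recomputed. Mmp13 was at 399 CPM (10232 UMIs) in LNR and 191 CPM (4313 UMIs) in LNR control, a log2 ratio of 1.06 with an interval from 1.01 to 1.12, and fell under the limit (0.53) with classes taken from markers per barcode. Adamts18 had only 22 and 31 UMIs (−0.68), with an interval from −1.53 to 0.16 that includes 0. Just under the limit stood Mmp3, with 246 and 164 CPM (0.58), and then Mmp11 (0.56) and Adamts17 (0.52). Mmp3 was past it under 8 of 9 alternatives, from 0.37 to 2.42 over all. Timp1 was at 505 against 392.4 CPM (0.36). The median log2 ratio was 0.06 over the 28 genes and 0.02 over all genes.

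None of the 28 genes measured in both experiments passed 1.5-fold in the same direction in mesenchymal-like cells, where 0.359% of all genes did. The count became 1 at resolutions 0.4 and 1.2 (Adamts8), 2 with each library clustered alone (Adamts8 and Mmp3), 3 without upper limits on cells (Adamts8, Adamts20 and Mmp3) and 3 at 1 UMI in each library. The share of all genes under these settings was not recomputed. Timp1 was past the limit in the SAR131675 experiment only and Mmp13 in the LNR experiment only. Mmp13 was at 46.9 CPM in SAR131675 diet and 60.3 in diet control, a log2 ratio of −0.36 that became 0.0631 without upper limits on genes and UMIs and −3.86 with classes from markers per barcode. The difference between the experiments was not tested, because each ratio rests on 1 library a side.

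**Figure D3:**
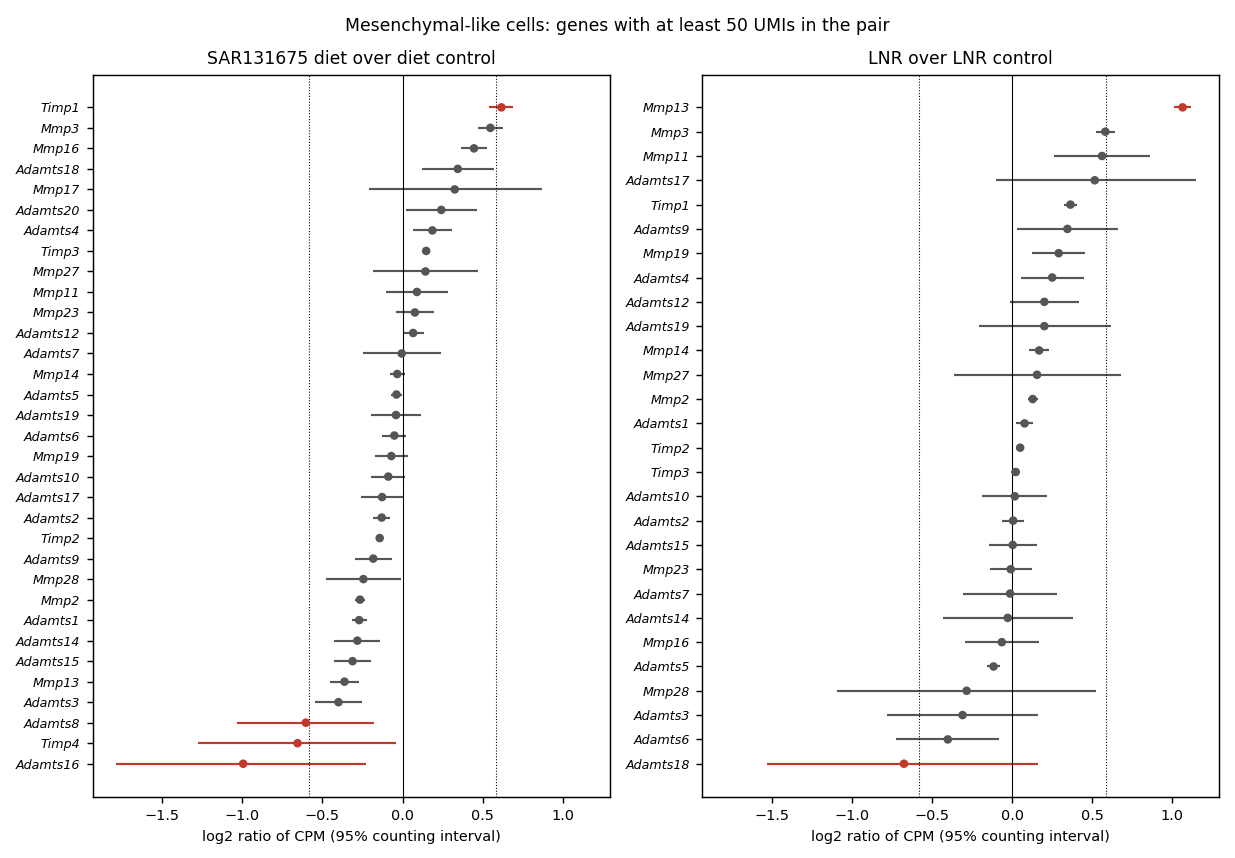
Points are log2 ratios of CPM in mesenchymal-like cells for genes with at least 50 UMIs in the pair, SAR131675 diet over diet control on one side and LNR over LNR control on the other, with bars for the 95% counting interval, dotted lines at 1.5-fold and genes past it in red. Timp1 (0.62) lies past the 1.5-fold limit in the first and Mmp13 (1.06) in the second, and most genes lie near 0.

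Mmp13 was carried by few cells. Of the mesenchymal-like cells, 67 of 3881 had an Mmp13 UMI in SAR131675 diet (1.73%), 47 of 3472 in diet control (1.35%), 212 of 5347 in LNR (3.96%) and 112 of 4872 in LNR control (2.30%). The 10 cells with most Mmp13 held 51.6%, 65.5%, 38.2% and 44.8% of the mesenchymal Mmp13 UMIs, and 1 LNR cell held 676. In NK or T-like cells, which should lack the gene, the shares were 0%, 0%, 0.546% and 0.667%, at a median of 5167, 5400, 2033 and 1870 UMIs per cell against 10167, 9403, 4048 and 3936 in mesenchymal-like cells. With cells thinned to 2000 UMIs the mesenchymal shares were 1.29%, 1.10%, 3.20% and 2.12%. The number of cells with Mmp13 and their total UMIs were higher in LNR than in its control, while the median over positive cells was lower, 6 UMIs against 13.

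Osteoblast-like cells, named from Bglap, Ibsp, Sp7 and related genes, held 97.5% and 99.6% of the mesenchymal Mmp13 UMIs in SAR131675 diet and diet control. Their level was 1202 and 2049 CPM, a log2 ratio of −0.77 with an interval from −0.86 to −0.68. In the LNR pair, osteoblast-like cells held 25.2% and 30.7% of the Mmp13 UMIs, at 2212 CPM in LNR and 1447 in LNR control (0.61, from 0.52 to 0.71). These values rest on 179, 116, 244 and 189 cells, and the 10 cells with the most Mmp13 held 51.6% and 65.5% of the mesenchymal UMIs in the SAR131675 pair. Over 6 other settings, computed for these cells after the values were seen, the log2 ratio ran from −0.86 to −0.27 in the SAR131675 pair. It was nearest 0 there without upper limits on genes and UMIs. In the LNR pair it ran from 0.44 to 1.34 and was under the limit in 4. The 1.34 came from clustering each library alone, where 368 LNR cells with 9816 Mmp13 UMIs took the name, against 183 control cells with 1338. Both sides need not hold like cells in that setting, and the other settings reached at most 0.59. Of all genes tested in osteoblast-like cells, 10.4% passed 1.5-fold in the SAR131675 pair and 8.48% in the LNR pair. In the LNR osteoblast-like cells Mmp3 (1.16) and Timp1 (0.86, from 768 CPM to 1389.8) were past 1.5-fold as well, so 3 of 11 genes were higher and none lower. In the SAR131675 pair none of 20 genes was higher in these cells and 2 were lower.

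The other Mmp13 cells of the LNR pair were among those named fibroblast-like, with 73.4% of the mesenchymal Mmp13 UMIs in LNR and 64.2% in LNR control. Nearly all of these lay in 1 sub-cluster of 174 LNR and 133 LNR control cells led by Slpi, Il11, Il1rl1, Tnfsf11 (the osteoclast-forming cytokine RANKL), Tnn, Inhba, Tnc, Sfrp2, Spp1 and Cxcl5. It took the name fibroblast-like from its marker score alone (0.556). None of these 10 genes is a fibroblast marker, but most fibroblast markers could not appear. Col1a1, Col1a2, Col3a1 and Dcn were left out of the ranking of leading genes, and of that marker list only Pdgfra and Lum remained. In the clustering of all cells, Tnn, Inhba, Il11 and Tnc led a cluster together with the bone genes Bglap, Ibsp, Bglap2, Spp1 and Alpl. In the sub-cluster, Mmp13 was at 4268 CPM in LNR and 2373 in LNR control (0.85, from 0.78 to 0.91), with a UMI in 39.7% and 28.6% of cells. Mmp3 was at 2254 and 1681 CPM (0.42), and Timp1 at 4315 and 4066 (0.09). Adamts5 (0.80), Adamts4 (1.03) and Adamts12 (0.78) were also past 1.5-fold, so 4 of 15 genes were higher and none lower, and 10.8% of all genes passed. The cells named fibroblast-like in the SAR131675 pair, whose sub-clusters were led by other genes, held 0.16 CPM of Mmp13 and 0.

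**Figure D4:**
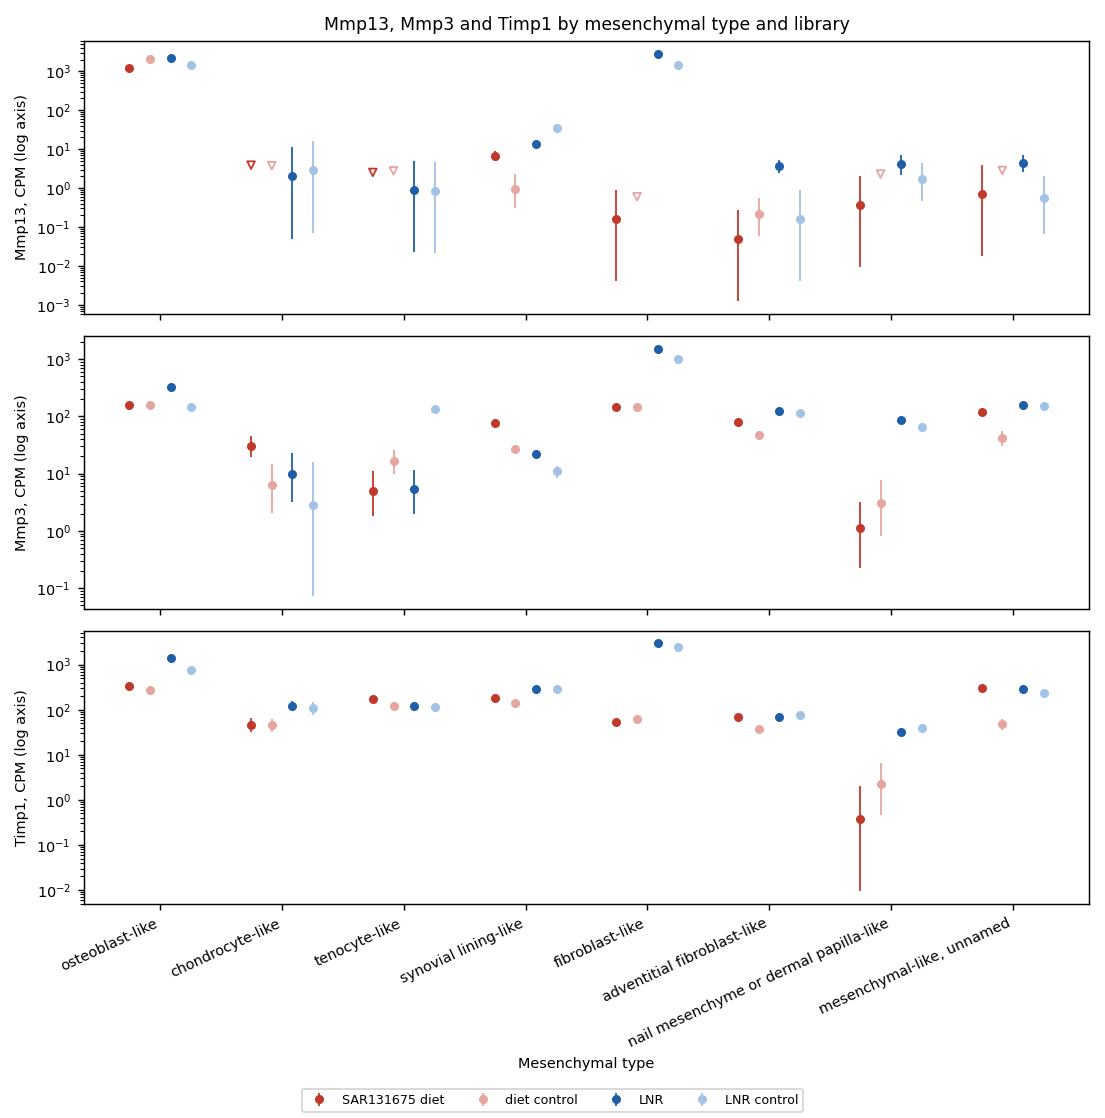
Points give the CPM of Mmp13, Mmp3 and Timp1, on log axes, in each mesenchymal type for the 4 libraries, with bars for the 95% counting interval and open triangles for the 3-count floor where no UMI was found. Mmp13 stands at 1202 to 2212 CPM in osteoblast-like cells of every library and at 2853 and 1433 CPM in the cells named fibroblast-like in LNR and LNR control, nearly all of it in the sub-cluster led by Slpi and Il11.

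Mmp3 and Mmp13 lie in the same Mmp cluster on chromosome 9, and both were high in the cells just described, as was Timp1 from chromosome X. For that reason the RefSeq promoters (GRCm38.p6, from 250 bases before to 50 after the start of transcription) of these genes are shown, at chr9:7272264-7272563 for Mmp13, chr9:7445572-7445871 for Mmp3 and chrX:20869916-20870215 for Timp1, all on the plus strand, with an AP-1 motif (TGAGTCA on either strand) in capitals:
Mmp13: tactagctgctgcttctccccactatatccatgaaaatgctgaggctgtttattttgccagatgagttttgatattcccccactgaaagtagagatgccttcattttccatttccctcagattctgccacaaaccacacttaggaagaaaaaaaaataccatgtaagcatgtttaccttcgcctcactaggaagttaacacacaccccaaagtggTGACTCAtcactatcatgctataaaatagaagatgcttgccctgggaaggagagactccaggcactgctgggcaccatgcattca
Mmp3: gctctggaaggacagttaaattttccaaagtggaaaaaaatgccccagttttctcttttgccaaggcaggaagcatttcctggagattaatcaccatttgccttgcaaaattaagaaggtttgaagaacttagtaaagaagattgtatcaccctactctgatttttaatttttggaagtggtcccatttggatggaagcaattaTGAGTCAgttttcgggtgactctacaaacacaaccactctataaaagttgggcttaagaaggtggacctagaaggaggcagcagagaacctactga
Timp1: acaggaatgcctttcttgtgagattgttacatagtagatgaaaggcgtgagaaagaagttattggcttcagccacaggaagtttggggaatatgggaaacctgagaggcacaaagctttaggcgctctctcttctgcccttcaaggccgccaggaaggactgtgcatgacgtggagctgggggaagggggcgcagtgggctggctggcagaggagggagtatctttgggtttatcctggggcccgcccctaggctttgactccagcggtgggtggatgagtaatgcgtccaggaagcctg
The capitals begin 35 bases before the start for Mmp13 and 46 for Mmp3, and Timp1 has no such motif in this window. Only the exact letters were searched, so near matches, such as tgagtaa in the Timp1 sequence, are not marked. Of 32 member genes with a promoter in the table, 7 held the motif, Mmp1a, Mmp1b, Mmp3, Mmp7, Mmp10, Mmp12 and Mmp13, all on chromosome 9, out of 18 Mmp, 10 Adamts and 4 Timp genes. The share over all 32851 promoters was 5.20%. The letters of a TATA box (TATAAA), on either strand and at any place in the window, were found in 11 member genes and 13.6% of all promoters. A RUNX motif (AACCACA on either strand) was found in Mmp7, Mmp13 and Mmp27 and in 5.27% of all promoters. A match is a description of the letters, and binding was not measured.

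Outside the mesenchyme, several ratios past 1.5-fold also rested on few UMIs or few cells. In keratinocyte-like cells, 6 of 32 genes were higher and none lower in SAR131675 diet, where 8.19% of all genes passed (4.53% higher and 3.66% lower). Cells of no named layer made up 2003 of the 19552 cells of the class in SAR131675 diet and 871 of 16066 in diet control. In LNR 2 were higher and 8 lower of 27, and 5.37% of all genes passed (0.903% higher and 4.47% lower). The make-up of the class differed in the LNR pair as well, since 1 cluster led by hair and nail keratin genes (Krt36, Krt84 and Krtap3-1) held 9 LNR and 394 LNR control cells. Summed Mmp levels were 114 and 112 CPM in basal and 59.0 and 58.7 CPM in suprabasal keratinocyte-like cells, and 93.5 against 141 CPM in keratinocyte-like cells of no named layer, where summed Timp levels were 140.4 against 250.1 CPM. Mmp13, Mmp23 and Timp1 were higher in one experiment and lower in the other, as were 0.902% of all genes. Timp1 had 124 and 53 UMIs in the SAR131675 pair (0.88) and 218 and 510 in the LNR pair (−0.98). Of the latter, 81 and 413 lay in cells of no named layer, at 4.04 and 15.1 CPM, while basal cells held 2.44 and 1.00 CPM. Col1a1, a fibroblast and bone gene, moved with it in keratinocyte-like cells, at 12.0, 9.75, 21.0 and 89.6 CPM. Of the matrix substrate genes counted there, 6 of 13 were higher in SAR131675 diet and 8 of 12 were lower in LNR. The part of transcripts from mesenchymal cells in these ratios was not tested. Adamts20, with 877 and 382 UMIs (0.85), was the most counted gene past the limit in SAR131675 diet, and the LNR ratio of Mmp3 (−0.83) became −0.06 without the top cells, since 1 control cell held 167 UMIs.

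In endothelial cells, blood and lymphatic together, 1 gene was higher and 1 lower of 18 in SAR131675 diet, where 5.9% of all genes passed (2.95% higher and 2.95% lower). In LNR 4 were higher of 19, and 3.46% of all genes passed (1.63% higher and 1.83% lower). Adamts6 was higher in SAR131675 diet (43.9 against 29.1 CPM, 0.59) and Timp4 lower (57 against 113 UMIs, −1.34). In LNR, Timp1 was at 55.9 against 25.2 CPM (1.15), and Mmp3 had 819 UMIs against 15, of which 1 cell held 643. In myeloid cells, 4 of 14 genes were lower in SAR131675 diet, among them Mmp12, whose ratio rests on the cell named above, and 6.31% of all genes passed (3.08% higher and 3.23% lower). In LNR Timp1 was higher and Mmp25 lower of 12 genes, and 5.02% of all genes passed (2.51% higher and 2.5% lower). Myeloid Timp1 had 151 UMIs in LNR and 64 in LNR control (1.06), and no 1 cell carried it. Timp1 therefore stood higher in LNR than in its control in endothelial and myeloid cells and lower in keratinocyte-like cells.

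In mural-like cells, Adamts8 was lower in SAR131675 diet (71 against 73 UMIs, 13.6 against 21.0 CPM, −0.62), 1 of 21 genes, and 5.96% of all genes passed (2.81% higher and 3.15% lower). Mmp2, Mmp11, Mmp13 and Mmp23 were higher in LNR, 4 of 19, and 5.99% of all genes passed (3.46% higher and 2.53% lower). Mmp2 was at 78.9 and 51.4 CPM (0.62), and 82 of the 96 Mmp13 UMIs lay in 1 cell. In Schwann-like cells, 4 of 15 genes were lower in SAR131675 diet, where 11.5% of all genes passed (5.36% higher and 6.11% lower), and 5 of 8 were higher in LNR, where 11.2% passed (6.66% higher and 4.56% lower), with Mmp2, Mmp14 and Timp1 in both sets, as 1.06% of all genes were. The LNR values there rest on few cells, since 475 of 556 Mmp13 UMIs and 240 of 268 Timp1 UMIs were each in 1 of 146 cells, and Ibsp, a bone gene, was at 790 CPM in that class. The part of bone cells in these counts was not tested, nor was that of pigment cells in the SAR131675 pair, where Dct differed as given above.

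Of the genes with at least 50 UMIs in both pairs (27 in keratinocyte-like, 14 in endothelial, 11 in myeloid, 18 in mural-like and 7 in Schwann-like cells), none passed 1.5-fold in the same direction in both experiments, where the share of all genes was 0.431% in keratinocyte-like, 0.239% in endothelial, 0.377% in myeloid, 0.345% in mural-like and 0.392% in Schwann-like cells. Nor did any pass in opposite directions in mesenchymal-like (0.328% of all genes), endothelial (0.248%), myeloid (0.237%) or mural-like cells (0.403%).

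Genes that act with these proteases were counted in mesenchymal-like cells as well. Among other inhibitors, 3 of 8 were higher and 1 lower in SAR131675 diet, where 4.04% of all genes were higher and 2.41% lower. The higher genes were Serpine2 (protease nexin-1) at 844 against 540 CPM (0.64), Spock1 (1.35) and Spock3 (1.24), and A2m (alpha-2-macroglobulin) had 3 against 93 UMIs. Of 7 ADAMTS-like genes, Adamtsl2 was higher (0.65). None of 8 activators and cofactors such as Furin and Plau, of 13 matrix substrates, of 6 shedding ADAM proteases and of 10 genes of the response to tissue dissociation passed the limit. In LNR, none of the genes of these 6 lists passed it.

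A cluster that was split from the mesenchymal clusters stood above the 9 classes for several members. Its best marker score was for fibroblasts (0.609 and 0.616 in the experiments). Its leading genes held more smooth muscle than mesenchymal markers, so the naming rule left it unnamed and outside the mesenchymal-like class. That count was uneven, because the ranking of leading genes left out mesenchymal markers such as Col1a1, Col1a2, Col3a1 and Dcn but no smooth muscle marker. The cluster was led by Acta2, Tagln, Lrrc15 and Ednrb, genes of contractile cells and matrix-remodeling fibroblasts, in both experiments, with 208, 111, 309 and 255 cells. In it Mmp14 was at 568, 790 CPM, 552 and 515, and Mmp11 (stromelysin-3) at 268, 452, 255 and 189. Adamts18 was at 323, 199, 46.2 and 57.9 CPM, and among the mesenchymal types it was also found in nail mesenchyme or dermal papilla-like cells of the SAR131675 pair (119 and 159 CPM). Each value in the unnamed cells was at least 2 times that of each of the 9 classes, where the highest levels were 207, 212, 191 and 170 CPM for Mmp14 in mesenchymal-like cells and 29.8, 26.7, 18.9 and 12.0 for Mmp11 in mural-like cells. How many of all genes stood as high in these cells was not counted. Adamts2 (203, 250, 170 and 174 CPM), Mmp23 (87.6, 68.8, 70.4 and 79.0) and Adamts10 (55.5, 64.1, 40.7 and 45.6) stood above the mesenchymal-like level as well.

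**Figure D5:**
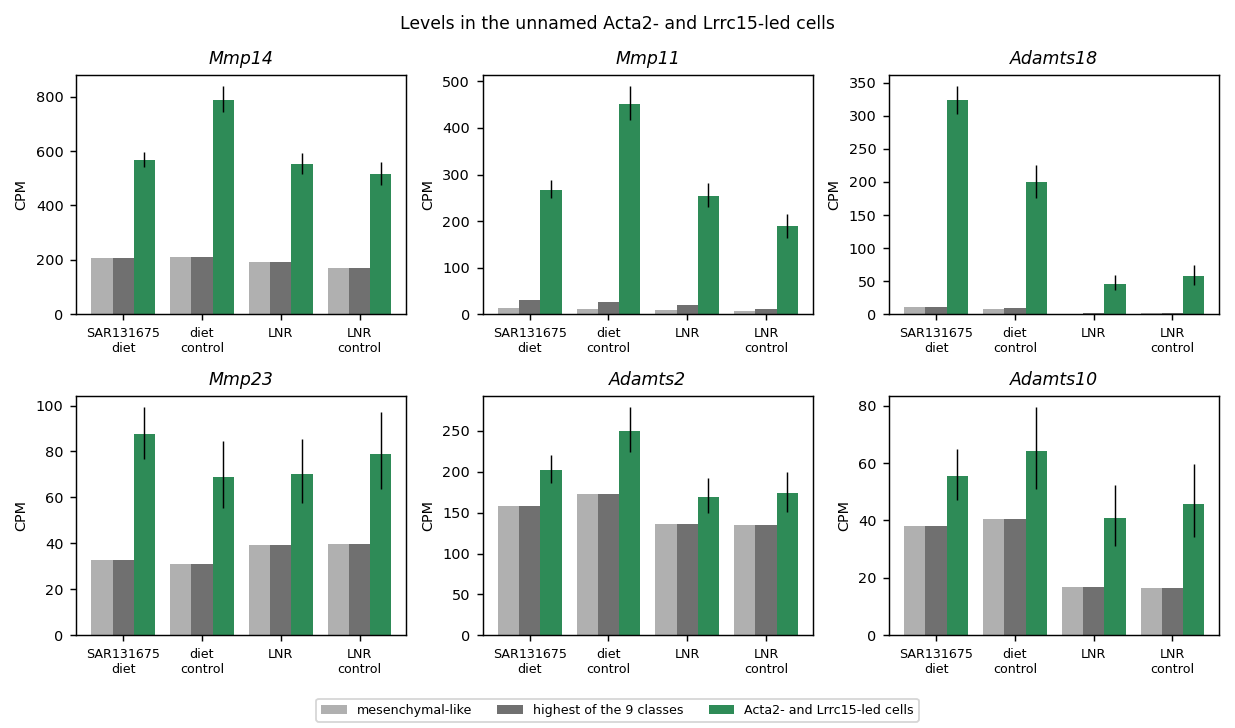
Each panel is a gene, and bars give its CPM in the unnamed Acta2- and Lrrc15-led cells of the 4 libraries beside the mesenchymal-like level and the highest level of the 9 classes, on an axis from 0, with black lines for the 95% counting interval in the unnamed cells. Mmp11 is at 189 to 452 CPM in these cells and at 12.0 to 29.8 CPM in mural-like cells.

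The genes whose levels on a log scale followed Mmp13 most closely over the 9 classes in the 4 libraries (36 points) were Gm16958, Gm31048, Bglap2, Ibsp and Slitrk1, with Pearson's r from 0.845 to 0.865. Those closest to Timp1 were Serpinf1, Mxra8, Htra3, Has1 and Gpx3, from 0.877 to 0.893. The 36 points come from both experiments and share libraries and depth within each library, so these values order the genes and no more. They include the LNR Schwann-like point, where 1 cell held most of the Mmp13 and Ibsp was high. Bglap2 and Ibsp are osteoblast genes, and osteoblast-like cells also held the Mmp13 of the SAR131675 pair.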

How the data were processed

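Digits were read as single-cell 3′ libraries, 1 for each of 4 conditions. The deposited values are unnormalized UMI counts for each gene in each barcode, which the authors made with Cell Ranger, and no barcode in the files has fewer than 500 UMIs. The submitters' processing notes name Cell Ranger 6.1.2 and GRCm39, while the matrix headers give 8.0.1 for the SAR131675 pair and 6.1.2 for the LNR pair. Total UMIs per library were between 168507188 and 585284877.

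Barcodes with 200 to 5500 genes, at most 30000 UMIs and at most 10% mitochondrial UMIs were kept, as in the published filter of the LNR experiment. In the SAR131675 pair 15.1% and 12.9% of barcodes were over the gene limit, against 1.36% and 1.24% in the LNR pair. Barcodes shared between libraries numbered 348 in the SAR131675 pair and 130 in the LNR pair. Cells were clustered with the Leiden method (scanpy 1.11.5, python-igraph 0.11.9, Python 3.11.15, NumPy 2.4.6, SciPy 1.17.1, pandas 2.3.3) without the 45 genes, Mmp9 and the gene lists, and named from marker lists by a scoring rule chosen after the clusters were seen. The 45 genes and the lists were chosen with earlier results of these data known. UMIs were summed per class, CPM were given exact Poisson intervals, shares of cells Clopper-Pearson intervals and log2 ratios exact conditional intervals, and 0 counts were read against a floor of 3 counts. Genes were compared at 1.5-fold with at least 50 UMIs in the pair. The computation was tested on simulated counts. Doublets were left in. Scrublet in scanpy called 4.67%, 0.907%, 7.41% and 6.97% of cells, under its expected rate, and their removal was an alternative.

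Genes were described in full by a rule that took the 3 most counted members of each family, members whose leading class (myeloid types pooled) stood at least 5 times over the next, members past 1.5-fold alike in both experiments, the 3 highest and 3 lowest ratios per experiment with at least 100 UMIs, and bone or cartilage matrix proteases and all Timp genes. Genes outside it, such as Mmp12, Mmp25, Mmp28, Adamts12 and Adamts18, were singled out after their values were seen. Alternatives changed the clustering, cell limits, doublets, class definition, minimum UMIs and fold.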

Additional observations from a re-analysis of the deposited data

Results flagged for a closer look

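The unnamed cells led by Acta2 and Lrrc15 were used in no comparison between conditions, and 3 genes stood in them at 2 times or more the level of each of the 9 classes, in all 4 libraries. The share of all genes that did so was not counted. These cells are a small sub-cluster, while each of the 9 classes is taken as a whole. Mmp11 was at 268 CPM in SAR131675 diet, 452 in diet control, 255 in LNR and 189 in LNR control. Mmp14 was at 568, 790 and 552 CPM and, in LNR control, 515. Adamts18, whose level in mesenchymal-like cells as a whole was 10.2 CPM or less, was at 323 CPM and 199 in the SAR131675 pair and at 46.2 and 57.9 in the LNR pair. In the SAR131675 pair, Adamts18 was also found in nail mesenchyme or dermal papilla-like cells, at the levels given above. These cells were singled out after their levels were seen, and they number 111 to 309 per library.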

How the results depend on the processing

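Of the ratios of single genes recomputed under the alternatives, 269 lay within the counting interval of the reported value and 59 outside it, and 1 past 1.5-fold changed sign, that of Adamts8 in mesenchymal-like cells of the SAR131675 experiment, from −0.60 to 0.0875 with barcodes called by Scrublet removed. Counting also ratios under the limit, 14 of 39 had both signs among their settings. The widest was Mmp13 with SAR131675, from −3.86 to 0.0631. Mmp3 in LNR ranged from 0.37 to 2.42. The log2 ratio of Mmp13 in LNR ranged from 0.53 to 1.28 and that of Timp1 with SAR131675 from 0.50 to 0.75. Mmp13 in LNR stayed past the limit except with classes taken from markers per barcode, and Timp1 with SAR131675 except at resolution 0.4, at a fold of 2, without the mesenchymal-like cells of no named type (tried after seeing the data) and with markers per barcode, where it had too few UMIs. Of the mesenchymal-like Timp shares, 13 lay within their counting interval and 15 outside it, from 53.1% to 59.7% apart from 38.8% in diet control with markers per barcode. The SAR131675 count of 4 genes became 2 at resolution 0.4 and without Scrublet calls, 7 with each library clustered alone, 1 at 200 UMIs over the pair, 8 at 1 UMI in each library and 0 at a fold of 2. The LNR count of 2 became 5 at resolutions 0.4 and 1.2, with each library alone, without upper limits on cells and with markers per barcode, 4 without Scrublet calls and with the mean of the cells' own CPM, 1 at 200 UMIs and at a fold of 2, and 9 at 1 UMI. The count shared by both experiments, 0, became 1 at resolutions 0.4 and 1.2 (Adamts8), 2 with each library alone (Adamts8 and Mmp3), 3 without upper limits (Adamts8, Adamts20 and Mmp3) and 3 at 1 UMI (Adamts8, Mmp25 and Timp4). For these settings the share of all genes was not recomputed, so the moves in these counts are not read as particular to the members. The number of genes with a constant leading class, 21 of 26, became 2 of 2 with markers per barcode, where only 62 and 95 mesenchymal-like cells were left in the SAR131675 pair, so fewer genes were assessed. The cause of the other moves was not tested. Genes such as Adamts8 and Adamts18 rest on few UMIs or few cells, and the intervals cover counting error only. The 10 cells with the most Adamts8 held 41.2% and 52.8% of its mesenchymal-like UMIs in SAR131675 diet and diet control. No paired analysis was possible because each condition has 1 library.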

Other observations

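Levels of genes with the longest introns differed between the control libraries of the experiments. In mesenchymal-like cells the median log2 ratio of diet control to LNR control was −0.15, 0.23, 0.59 and 1.36 over all genes in 4 bins of equal size from the shortest introns to the longest, and 0.14, 0.50, 0.03 and 2.51 over the 33 members with a value. The last bin held 12 members, such as Adamts17 (4.05), Adamts20 (3.495) and Adamts6 (3.33), but also Adamts2 (0.36). Some members with shorter introns lay the other way, with Timp1 at −2.59, Mmp13 at −1.66 and Mmp3 at −1.48. In all, 12 members differed by 4-fold or more. The share of all genes past that fold was not counted, so the 12 are not read as a trait of the members. The experiments also differ in batch and procedure, and the part of each was not tested.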
